A study of Mus musculus with 58 samples.

Results

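Autosomal gene expression was compared between libraries of adipose stem cells without DPP4 on their surface (ASC1) labelled as from castrated male mice and ASC1 libraries labelled as from control female mice, whose ovaries were left in place. The transcripts of the sex chromosomes went against these labels in most of the libraries. The members were taken by the library names, as the 8 libraries named for castration ASC1 in wells I2 to P2 and the 8 named for female control ASC1 in wells A4 to H4. They are 16 of the 58 libraries in the experiment, which also holds control males, ovariectomized females and the DPP4+ cells (ASC2) of every group. All mice were C57BL6/J. The males were castrated at 4 weeks of age, and they and the age-matched control females were terminated at 10 weeks after 4 h of fasting. The mice were wild type, with no transgene or reporter. Cells were sorted from the inguinal subcutaneous fat depot (iWAT) as CD45-/CD31-/CD34+/DPP4-, a gate that leaves out leukocytes and endothelial cells, and bulk RNA was sequenced with Smart-seq3. The comparison asks whether genes that differ by sex in intact mice still differ once the testes are gone.

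ASC1 are the fibroblast-like cells of white fat that lie closest to the adipocyte lineage, and they also make much of the collagen and soluble matrix of the depot. Androgens come mainly from the testis and estrogens from the ovary. Both act through nuclear receptors that adipose stem cells express, and estrogen is known in many tissues to induce the progesterone receptor gene. A castrated male has lost most androgen but has no ovary, so hormone levels and chromosomes both differ between these groups by design.

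Transcripts of the sex chromosomes went against the labels. Reads of 4 Y-linked genes (Ddx3y, Eif2s3y, Uty and Kdm5d, all expressed widely in males) numbered 0 to 4 in each of the 8 libraries labelled castration, 8 in all, and reads of Xist, the RNA of the inactive X chromosome, numbered 13 to 97. Of the 8 libraries labelled female control, 5 (B4, C4, D4, G4 and H4) held 33 to 55 Y-linked reads and 1 to 6 Xist reads. The others were E4 and F4, with 0 Y-linked reads and 54 and 35 Xist reads, and A4, with 1 and 2. In ASC2 the libraries labelled castration held 21 to 75 Y-linked reads and 0 to 5 of Xist, and those labelled female control held 0 to 47 and 4 to 101, with at least 3 Y-linked reads in 6 of 8. The study's methods mention Y-linked reads in its female control samples and take them as slight carry-over of male RNA, on the ground that male-specific transcripts were low there. Whether labels or wells of ASC1 were exchanged, or RNA of other samples was mixed in, was not tested and cannot be decided from these counts. If labels were exchanged, a difference given here would not be one of castrated males from control females. Every direction is therefore that of the labels, as the libraries labelled castration against those labelled control. Counts of calls and many of the genes and lists are also given against the 5 controls with at least 3 Y-linked reads and against the 3 with fewer (A4, E4 and F4), in that order where a pair of values is given against the subsets.

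**Figure D1:**
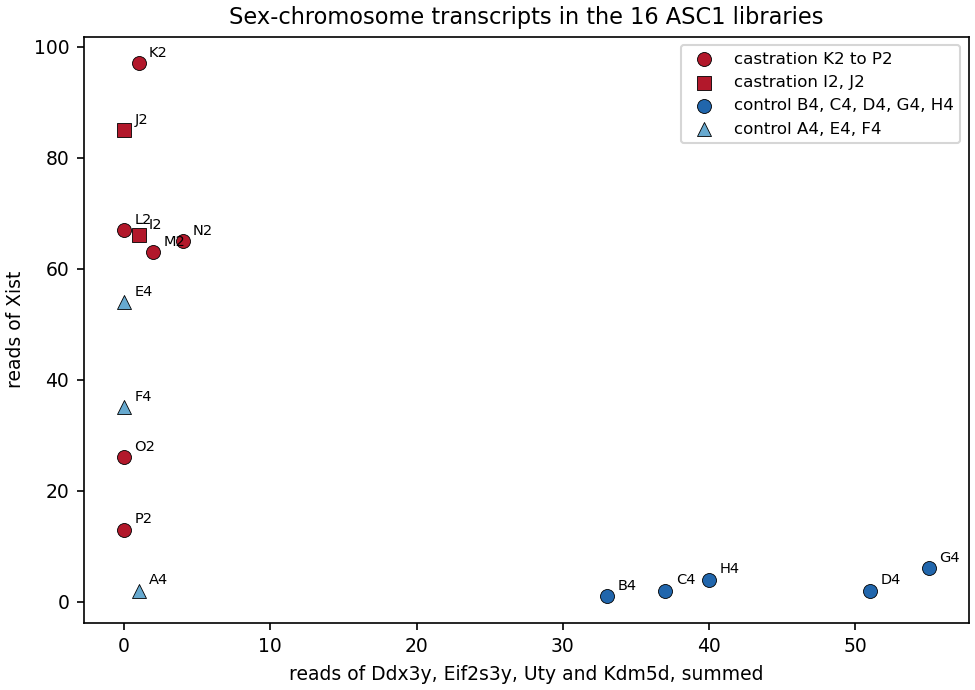
Reads of 4 Y-linked genes, summed (x axis), against reads of Xist (y axis), as raw counts, with 1 point for each of the 16 ASC1 libraries. The libraries labelled castration lie at 0 to 4 Y-linked reads, and 5 of the 8 labelled female control lie at 33 to 55.

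Total counts were 235098 to 865899 per library (median 713812) for castration and 139822 to 893234 (median 620044) for control, with O2, P2 and A4 under 300000. Some libraries stood apart. Over 8444 genes, I2 and J2 correlated with each other at r = 0.912 and with the other 6 libraries labelled castration at 0.785 to 0.851, against 0.821 to 0.937 among those 6. With controls E4 and F4 the same I2 and J2 reached 0.847 to 0.901. A4 correlated with all others at 0.650 to 0.802. The labels place the castration libraries in plate rows I to P and the control libraries in rows A to H, so plate position and group cannot be told apart.

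The sorted population carried the transcripts of fibroblasts. Pdgfra, the receptor that marks adipose stem cells, had 415 ± 28.7 CPM (SD, n = 8) in the libraries labelled castration and 393 ± 102 in those labelled control, with a log2 fold change of 0.08. Of the 10 fibroblast genes listed 8 were not called, while Col3a1 and the sort marker Cd34 were lower (-1.19 and -1.16). CPM is the count scaled to the total of its library, after TMM adjustment of the totals. Dpp4 itself was at 26.2 ± 16.4 and 27.7 ± 14.9 CPM in ASC1, against means of 119 and 248 CPM in the ASC2 libraries of the same labels. It lay at 1.28 to 7.18 CPM in I2 and J2, which sets them below the 16 to 47.3 CPM of K2 to P2.

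Of 11960 autosomal genes tested, 102 were higher in the libraries labelled castration (0.853% of genes tested) and 144 were lower (1.20%) at an adjusted p below 0.05. Differences are log2 fold changes of castration over control with standard errors, from the quasi-likelihood test of edgeR with Benjamini-Hochberg adjustment over all genes tested. The median log2 fold change over all autosomal genes was close to 0, at -0.0045. No overlap at all between the libraries of the labels was less common, since 29 genes (0.242%) were above and 25 (0.209%) below in every library. Among the genes called, 14 of the 102 and 18 of the 144 had that separation.

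The counts differed with the controls used. Against the 5 controls with at least 3 Y-linked reads, 169 genes were higher (1.41%) and 283 lower (2.37%). Against the 3 with fewer, 3 were higher (0.0251%) and 5 lower (0.0418%), with 1463 genes at an unadjusted p below 0.05. That comparison has fewer controls as well as other ones, and the shallow A4 is among them, so the choice of controls and their number cannot be told apart in its counts. With so few calls over all genes, the lack of a call in a list against these 3 does not show that the list was level. All 102 higher genes kept their sign against those 3 libraries, and 128 of the 144 lower genes did. The same 3 libraries were among the controls on which these genes were called, which favours a kept sign. Those counts are therefore a description and not a separate test. Without I2 and J2, 153 were higher and 132 lower, of which 99 and 92 were among the original calls. Without A4 the counts were 121 and 160. Leaving out any other single library took the higher count as low as 58 (G4), 65 (K2) and 66 (D4). The lower count fell to 61 (G4), 73 (K2), 78 (D4), 79 (L2), 81 (H4), 85 (M2), 86 (P2), 89 (B4), 90 (O2) and 94 (C4).

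**Figure D2:**
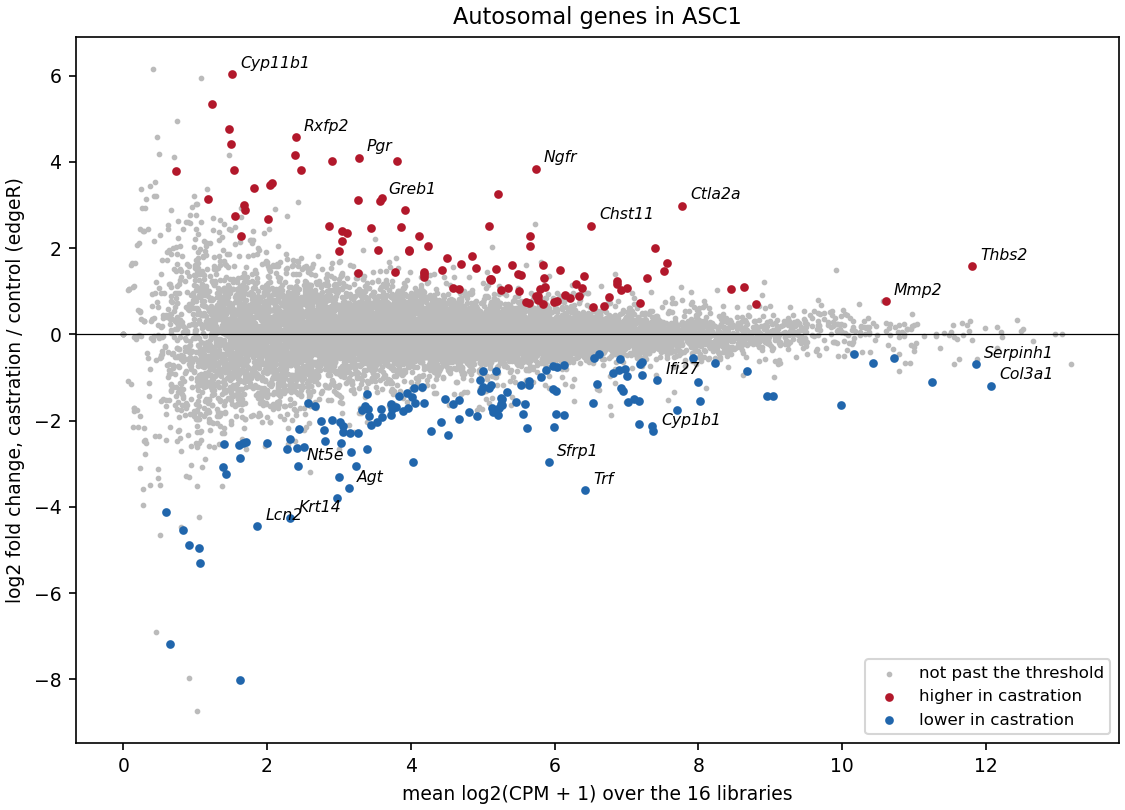
Log2 fold change of castration over control (y axis, edgeR) against mean log2(CPM + 1) over the 16 ASC1 libraries (x axis) for 11960 autosomal genes. Red points are the 102 genes higher and blue points the 144 genes lower in the libraries labelled castration, and the widest differences lie among genes of low expression.

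Pgr and Greb1 were among the 12 genes with the largest differences upward. Pgr encodes the progesterone receptor, a standard target of the estrogen receptor. It had 7.66, 47.0 and 63.9 CPM as the lowest, median and highest of the 8 libraries labelled castration, and 0, 2.32 and 13.1 in those labelled control. The log2 fold change was 4.10 ± 0.79 (SE, adjusted p = 0.00136), and the groups overlapped only through I2 and J2 against A4. Greb1, an estrogen-induced cofactor of the estrogen receptor, had 7.18, 56.7 and 85.0 CPM against 0, 0 and 19.7, with a log2 fold change of 3.10 ± 0.71 (adjusted p = 0.00924). No Greb1 read was present in the 5 controls with at least 3 Y-linked reads, and the other controls (A4, E4 and F4) lay at 18.0 to 19.7 CPM. Against those 3 libraries alone neither gene passed, with 3.02 for Pgr and 1.53 for Greb1 (adjusted p = 0.274 and 0.471).

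Ptpn5, a tyrosine phosphatase of the female-enriched core set, had the same split among controls. Its lowest, median and highest values were 116, 186 and 220 CPM in the libraries labelled castration, 0, 0 and 2.97 in the 5 controls with at least 3 Y-linked reads, and 79.2, 106 and 243 in the others. The comparison of 8 against 8 did not pass for Ptpn5 (2.03 ± 0.76, adjusted p = 0.173).

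Of 5 autosomal genes tested in the list of receptors for sex steroids, corticosteroids, growth hormone and prolactin, Pgr and Ghr were called, both higher, and the list median was 0.78. Over all autosomal genes tested 0.853% were higher. Ghr, the growth hormone receptor, had 33.2, 114 and 164 CPM against 21.4, 30.1 and 65.6 (1.60 ± 0.39, adjusted p = 0.0164). Its J2 and I2 values were 33.2 and 37.7, inside the control range, and its log2 fold change was 1.56 and 1.66 against the controls with at least 3 Y-linked reads and the others (adjusted p = 0.0337 and 0.275). Esr1, the main estrogen receptor gene, was at 16.9 ± 8.59 and 11.2 ± 8.97 CPM (0.78 ± 0.44, adjusted p = 0.455).

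The sequences before the starts of Pgr, Greb1 and Agt are shown because these hormone-linked genes were called in opposite directions. Each is the 250 bases before the start in RefSeq on GRCm38.p6, read on the strand of the gene. Pgr lies at chr9:8899583-8899832 on the plus strand, Greb1 at chr12:16800887-16801136 on the minus strand (the first of 2 entries), and Agt at chr8:124569707-124569956 on the minus strand. Capitals mark matches to 3 motifs searched on both strands: AGGTCA, the repeat unit of the estrogen response element, AGAACA, the repeat unit of the androgen and glucocorticoid response element, and TATAAA, the TATA box. The motifs occur in 14.0%, 16.1% and 12.4% of 32851 promoters of the same length.
Pgr: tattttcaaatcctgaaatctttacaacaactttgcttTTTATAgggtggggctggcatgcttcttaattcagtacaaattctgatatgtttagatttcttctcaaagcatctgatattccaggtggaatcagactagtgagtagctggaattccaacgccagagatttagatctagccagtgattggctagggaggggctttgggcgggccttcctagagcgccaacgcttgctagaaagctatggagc
Greb1: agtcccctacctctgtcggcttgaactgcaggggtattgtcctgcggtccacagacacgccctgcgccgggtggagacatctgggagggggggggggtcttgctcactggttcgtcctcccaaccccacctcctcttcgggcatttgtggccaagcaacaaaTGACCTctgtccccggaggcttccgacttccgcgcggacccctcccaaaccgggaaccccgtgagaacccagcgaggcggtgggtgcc
Agt: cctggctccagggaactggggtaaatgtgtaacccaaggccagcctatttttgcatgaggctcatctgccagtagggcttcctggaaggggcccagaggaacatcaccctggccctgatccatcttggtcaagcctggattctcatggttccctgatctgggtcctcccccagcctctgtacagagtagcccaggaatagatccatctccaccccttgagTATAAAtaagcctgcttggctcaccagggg
Greb1 held TGACCT, the estrogen repeat unit on the other strand, 88 bases before the start. Agt held TATAAA 30 bases before the start, and Pgr held TTTATA, the same letters on the other strand, 212 bases before it. Each is a match of letters in this window and not a measured binding site.

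The genes with the largest differences upward had few reads in the controls. Cyp11b1, an enzyme of corticosterone synthesis known from the adrenal cortex, had 0, 12.2 and 20.9 CPM in the libraries labelled castration and no read in any control. With a floor of 3 counts over the control group it was at least 18.9-fold higher (adjusted p = 0.00692), and I2 and J2 had no read either. Erv3, a gene of retroviral origin, had 55 reads against 1, a ratio of 51.3 with a 95% exact interval of 8.83 to 2063 that covers counting error only (adjusted p = 0.0193, and 0.0519 without G4). Rxfp2, a receptor of the relaxin family, had 0, 38.1 and 58.8 CPM against 0, 0 and 19.7 (4.58 ± 1.22, adjusted p = 0.0349), and its call was lost on leaving out any control but A4 or any of K2 to O2 (adjusted p up to 0.0829).

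Several of the others act in signaling or at the cell surface. Ngfr, the low-affinity neurotrophin receptor, had 57.4, 360 and 567 CPM against 0, 9.32 and 249 (3.84 ± 0.88, adjusted p = 0.00924). I2 and J2 both lay at 57.4 to 57.5 CPM while K2 to P2 lay at 315 to 567, and the highest control was A4. Tagap, a GTPase-activating protein known from T cells, had 0, 28.3 and 49.9 CPM against 0, 0.535 and 3.33 (4.15 ± 0.87, adjusted p = 0.00416). Ly6k, a surface protein of the Ly6 family, reached 1.79, 22.9 and 36.6 CPM against 0, 0 and 7.26 (3.81 ± 0.78). In Tagap and Ly6k the libraries I2 and J2 overlapped the controls. Against A4, E4 and F4 neither Ngfr nor Tagap passed, with 2.19 and 5.00 (adjusted p = 0.448 and 0.196).

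Lipg, which encodes endothelial lipase, a phospholipase that acts on high-density lipoprotein, was the gene among the 12 largest upward differences whose libraries did not overlap. It had 25.1, 49.1 and 70.8 CPM in the libraries labelled castration and 0, 3.19 and 15.0 in those labelled control (3.17 ± 0.60, adjusted p = 0.00106), and 4.28 and 2.17 against the subsets, the latter not passing (adjusted p = 0.272). Slco5a1, of the organic anion transporter family, had 8.94, 40.3 and 47.9 CPM against 0, 1.56 and 19.7 (3.11 ± 0.66, adjusted p = 0.00409). Siah3 and Nrn1 (neuritin, a neurite growth factor) had log2 fold changes of 3.40 and 2.99. The call of Siah3 was lost without any control but A4 and without K2, L2, N2, O2 or P2, and that of Nrn1 without B4, C4, D4, G4, H4, K2, L2, M2 or N2 (adjusted p up to 0.116 and 0.107).

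Chosen after their values were seen, Ctla2a, Chst11, Arl4c and Apol9a were higher and more abundant. Chst11, a chondroitin sulfotransferase, had 54.9, 295 and 373 CPM against 23.3, 30.8 and 112 (2.52 ± 0.41, adjusted p = 0.000117). Ctla2a, a cysteine protease inhibitor, lay at 1183 to 1443 CPM in K2 to P2 and at 34.1 and 44.7 in I2 and J2, against 40.7 to 597 in the controls. Apol9a, an apolipoprotein L gene, lay at 53.6 to 156 CPM and did not overlap the controls at 10.4 to 42.1 (2.27 ± 0.40, adjusted p = 0.000462). Near-identical copies of Apol9a and Ctla2a exist, and how their reads were divided by the quantification was not examined.

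**Figure D3:**
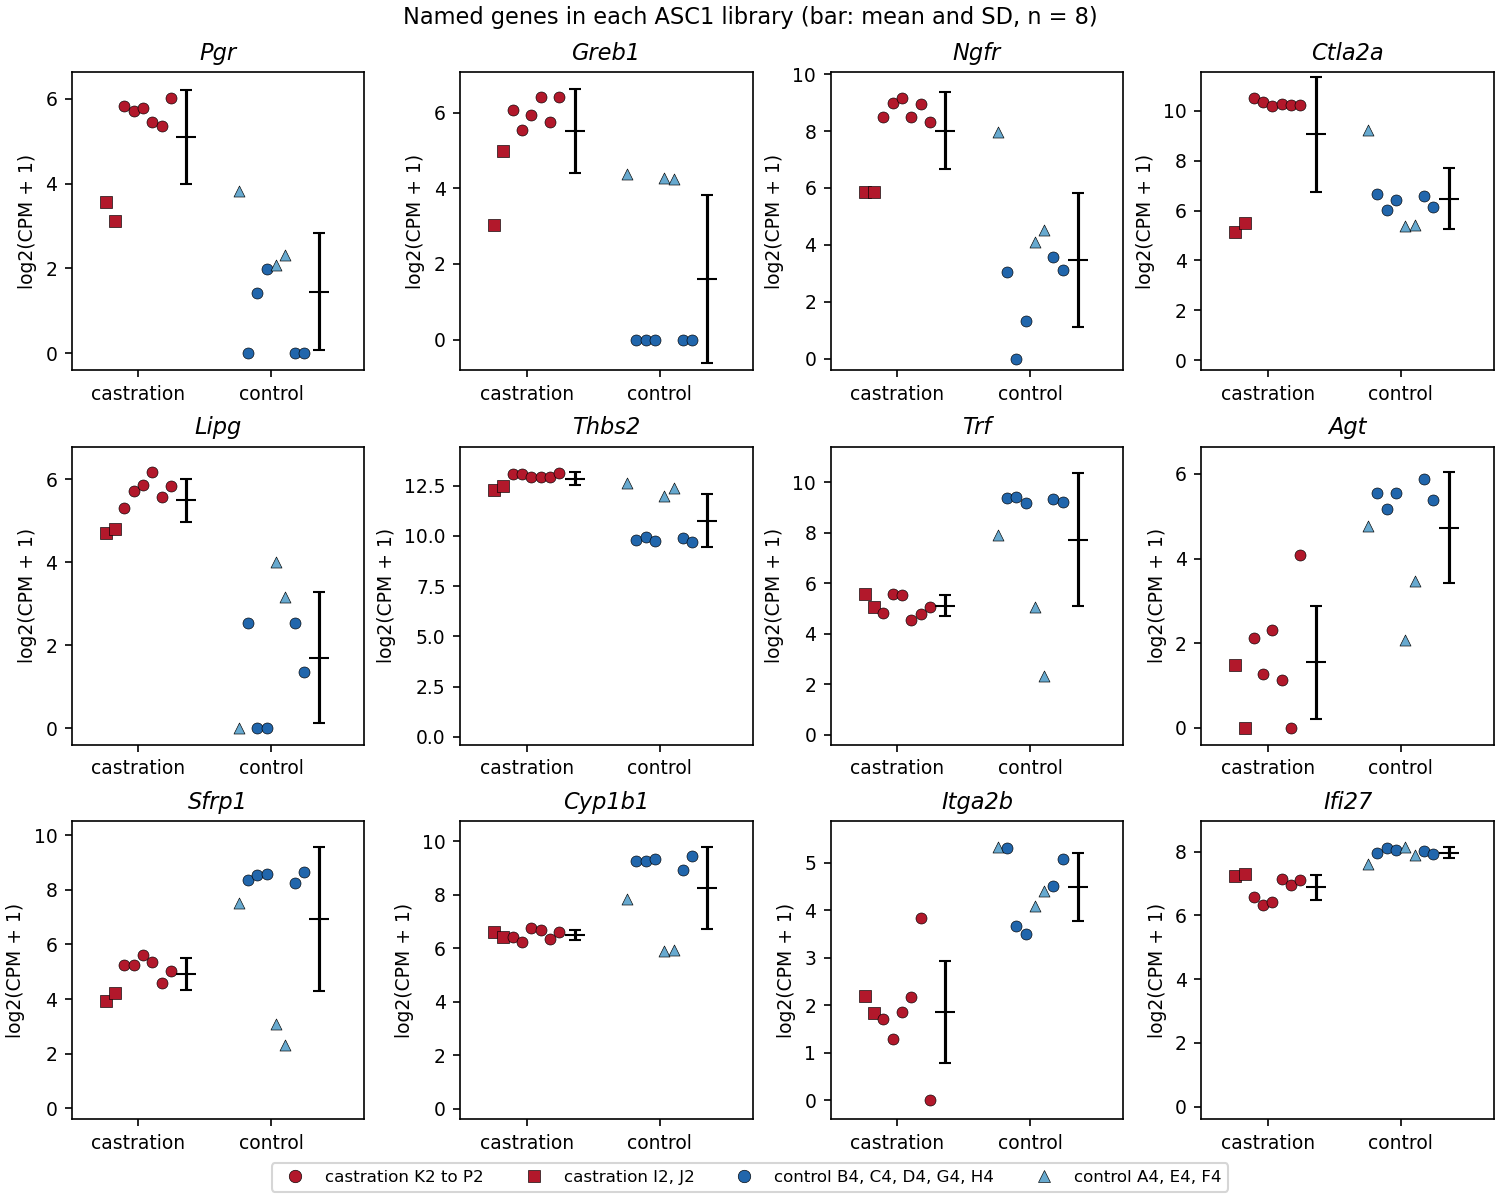
Expression as log2(CPM + 1) (y axis) of 12 named genes in each ASC1 library, by label (x axis), with the mean and SD of 8 libraries as a bar. Squares are I2 and J2 and triangles are A4, E4 and F4, and for Pgr, Greb1, Ngfr and Ctla2a I2 and J2 lie below K2 to P2.

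The hormone and iron carriers Agt and Trf were lower in the libraries labelled castration. Agt encodes angiotensinogen, the precursor of angiotensin II, and is made by fat as well as liver. It had 0, 1.61 and 16 CPM against 3.21, 37.7 and 57.9 in controls, with a log2 fold change of -3.57 ± 0.57 (adjusted p = 0.000117). Trf, which encodes the iron carrier transferrin, had 22.4, 31.9 and 46.7 CPM against 4.01, 587 and 678 (-3.61 ± 0.66, adjusted p = 0.000698). Trf was even across the libraries labelled castration, at 579 to 678 CPM in the 5 controls with at least 3 Y-linked reads, and at 4.01, 32.1 and 236 CPM in F4, E4 and A4. Against those last 3 the log2 fold changes were -1.0 for Trf and -1.72 for Agt, neither past the threshold (adjusted p = 0.687 and 0.411).

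Sfrp1, a secreted antagonist of Wnt signaling, followed the same split. It had 14.4, 34.6 and 48.4 CPM against 4.01, 316 and 402 (-2.96 ± 0.63, adjusted p = 0.00416), with 4.01 and 7.49 in F4 and E4. Nt5e, the ectonucleotidase CD73 that makes adenosine and serves as a stromal cell marker, had 0, 1.2 and 3.59 CPM against 5.35, 14.4 and 29.0, with no overlap between labels (-3.05 ± 0.56, adjusted p = 0.000812), and -1.80 against A4, E4 and F4 (adjusted p = 0.35). Lat2, an adaptor of myeloid and B cells, had 0, 3.44 and 7.99 CPM against 7.49, 30.8 and 59.0 (-3.06 ± 0.67, adjusted p = 0.00559). Cxcl5, a chemokine that attracts neutrophils, had 0, 5.53 and 21.7 CPM against 16, 52.9 and 119 (-2.96 ± 0.53, adjusted p = 0.000683). Cxcl5 and Lat2 were lower against both control subsets in sign, and passed only against the 5 with Y-linked reads (for Cxcl5 adjusted p = 9.47e-05 and 0.269).

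Itga2b and Tmem100 lay close together in log2 fold change against both subsets of controls, where the difference between subsets was not tested. Neither passed against the 3 with fewer Y-linked reads (adjusted p = 0.0955 and 0.166). Itga2b, the integrin subunit known from platelets, had 0, 2.59 and 13.3 CPM against 10.4, 20.9 and 39.4 (-2.73 ± 0.50, adjusted p = 0.00074), and its log2 fold change was -2.73 against the controls with Y-linked reads and -2.74 against the others. Tmem100, a membrane protein known from endothelium, had 0, 0.565 and 4.72 CPM against 4.83, 11 and 32.8, without overlap (-2.66 ± 0.61, adjusted p = 0.00963), and -2.60 and -2.78 against the subsets. Lcn2, an iron-siderophore carrier of the acute phase, had 3 reads against 76, a ratio of 27.2 with a 95% exact interval of 8.95 to 135, and its controls A4, E4 and F4 lay at 0 to 6.56 CPM. The remaining genes of the 12 largest downward differences (Krt14, Cldn4 and Sfn) are epithelial and are given with the other epithelial markers.

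Only 8 genes passed against the 3 controls with fewer than 3 Y-linked reads, and those named here were chosen because they are few, after their values were seen. Among the 3 higher were Ccn3 and Chic2, and lower were Ifi27, Aldh1a3, Cacybp, Scg3 and Gm7336. Ccn3 and 4 of the 5 lower genes were also called in the comparison of 8 against 8, Cacybp being the exception. Ccn3 encodes a matricellular protein and had 26.9, 35.5 and 50.8 CPM in the libraries labelled castration, against 0, 2.00 and 3.21 in A4, E4 and F4 and 15.6, 17.8 and 26.6 in the other controls. It was separate from both subsets (0.95 and 3.82, adjusted p = 0.124 and 0.00337). Ifi27, an interferon-inducible gene, had 78.8, 129 and 157 CPM against 197, 253 and 280 over all controls, with no overlap, and its difference was -1.11 and -1.0 against the subsets (adjusted p = 1.5e-05 and 0.0387). Aldh1a3, an enzyme that makes retinoic acid, had 0, 3.43 and 12 CPM against 12.1, 22.5 and 46.0 (-2.65 ± 0.48, adjusted p = 0.000733), also without overlap. Against A4, E4 and F4 the log2 fold changes were 3.49 for Chic2 and -1.57 for Cacybp. Cacybp lay at 96.3 and 160 CPM in E4 and F4. In A4 it was at 6.56 CPM, below the 20.3 to 43.9 CPM of the libraries labelled castration. Scg3, a secretogranin, had no read in the libraries labelled castration and 19 in the controls, at least 6.63-fold lower, and of Gm7336 nearly all control reads lay in F4, at 202 CPM.

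The core set of genes that differ by sex in ASC was chosen in the study from other mice. Counted with it here are Prelp, Avpr1a, AA474408 and Wasf1, which lie outside the core set and which the study examined beside it. Among the 22 male-enriched autosomal genes tested of this extended set, Agt, Nt5e and Prelp were lower in the libraries labelled castration and none was higher, with a list median of -0.74. Among the 11 female-enriched genes, Pgr, Akr1c14 and P4ha3 were higher and none was lower, with a median of 1.68. Of all autosomal genes tested 0.853% were higher and 1.20% lower. Against the 3 controls with fewer than 3 Y-linked reads no gene of either list passed, where 0.0251% of all genes were higher and 0.0418% lower. The list medians there were 0.45 and 0.44. Against the 5 others they were -1.24 and 1.53, beside a median of 0.02 over all genes.

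Prelp, a proteoglycan of connective tissue that anchors basement membranes, had 20.4, 32.6 and 51.9 CPM against 7.49, 120 and 211 (-1.60 ± 0.41, adjusted p = 0.0214). Its sign turned to 0.78 against A4, E4 and F4. The study lists several male-enriched transcripts as reduced by castration relative to control males. It also compared castrated males with control females. There it reports no significant difference for Sult1e1, C7, Angpt1, Arl4a and a gene written Prepl, taken here as Prelp. Apart from Agt and Prelp, the transcripts it lists did not pass here. C7, a terminal complement component, had 0, 0.59 and 14.4 CPM against 0, 10.3 and 20.8 (-1.97 ± 0.70, adjusted p = 0.147). Sult1e1, the estrogen sulfotransferase, had no read in the libraries labelled castration and 5 reads in controls, too few for a fold. Arl4a, a small GTPase, was at 6.64 ± 3.67 and 18.9 ± 9.59 CPM (-1.36 ± 0.40, adjusted p = 0.0568), and Ace, which makes angiotensin II, at 58.2 ± 26.1 and 131 ± 82.7 (-1.15 ± 0.42, adjusted p = 0.167). Fkbp5, an androgen- and glucocorticoid-induced chaperone, was level at 42.0 ± 14.8 and 43.1 ± 16.4 CPM (-0.05 ± 0.28). Angpt1 and Arhgap24 had log2 fold changes of -0.47 ± 0.72 and -0.30 ± 0.24.

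Of the enzymes that make or break down steroids 1 of 16 autosomal genes was higher and 1 lower, with and a median of -0.00. The higher gene was Akr1c14, a hydroxysteroid dehydrogenase of androgen and progesterone breakdown, at 10.8, 46.8 and 65.5 CPM against 2.41, 6.30 and 19.3 (2.28 ± 0.48, adjusted p = 0.00406), and 1.92 against A4, E4 and F4 (adjusted p = 0.274). The lower gene was Cyp1b1, which hydroxylates estradiol, at 74.5, 90.1 and 106 CPM against 58.9, 549 and 703 (-2.24 ± 0.40, adjusted p = 0.000683). Cyp1b1 was at 58.9 and 60.1 CPM in E4 and F4, below every library labelled castration, and at 486 to 703 in the 5 controls with Y-linked reads.

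In the renin-angiotensin system, where Agt is the substrate, 1 of 8 autosomal genes was higher and 1 lower, with a median of -0.56. The higher gene was Agtr1a, the main receptor of angiotensin II, which had 5.38, 18.3 and 28.2 CPM against 0, 2.88 and 12 (2.16 ± 0.45, adjusted p = 0.00357). Substrate and receptor thus differed in opposite directions. Against the controls with Y-linked reads 4 genes of the list were lower, and against the others none passed.

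Few transcripts of the extracellular matrix passed, and most of those were lower, beside 1.20% lower and 0.853% higher of all autosomal genes tested. Against A4, E4 and F4 no gene of the matrix lists was called lower, where 0.0418% of all autosomal genes tested were. Of 9 fibrillar collagen genes Col3a1, which assembles with collagen I in soft tissue, was lower, at 2440, 2971 and 3683 CPM against 2124, 7948 and 10260 (-1.19 ± 0.24, adjusted p = 0.00282). In E4 and F4 Col3a1 was at 2124 and 3683 CPM. Col1a1 was at 2430 ± 466 and 3883 ± 782 CPM and did not pass (-0.68 ± 0.25, adjusted p = 0.173), and the list median was 0.01. Of 15 other autosomal collagen genes only Col18a1, the source of endostatin, was called (-1.18 ± 0.31, adjusted p = 0.0291), with a median of 0.03. Col18a1 lay at 12.4 to 28.3 CPM in K2 to P2 and at 82.6 and 81.7 in I2 and J2, inside the control range of 63.3 to 125.

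Genes that modify and fold collagen were split. Of 23 tested, P4ha3, a prolyl hydroxylase subunit, was higher (2.05 ± 0.51, adjusted p = 0.0179), and Loxl4, a lysyl oxidase that cross-links collagen, Pcolce, an enhancer of procollagen cleavage, and Serpinh1, the collagen chaperone of the endoplasmic reticulum, were lower. Serpinh1 had 2380, 3030 and 3489 CPM against 3320, 5064 and 5370 (-0.70 ± 0.17, adjusted p = 0.0124). Pcolce and Loxl4 had log2 fold changes of -0.54 and -1.71. The list median was -0.18, and 0.31 against A4, E4 and F4.

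Basement membrane and elastic fibre genes were lower where called. Nid2, which links laminin to collagen in basement membranes, had 3.99, 29.7 and 45.9 CPM against 15.0, 173 and 206 (-2.17 ± 0.42, adjusted p = 0.0014) and was the 1 gene called of 15 (median -0.25). Against A4, E4 and F4 Nid2 was at -0.10 (adjusted p = 0.975). Of 17 elastic fibre genes Efemp1, Eln and Ltbp1 were lower and none was higher, with a median of -0.40. The medians of both lists changed sign with the controls, from -0.49 to 0.25 for basement membrane and from -0.56 to 0.15 for elastic fibre genes between the 5 with Y-linked reads and A4, E4 and F4, against which no gene of either passed. Eln, which encodes elastin, had 6.66, 15.9 and 46.7 CPM against 26.2, 49.5 and 90.5 (-1.32 ± 0.35, adjusted p = 0.0311). Efemp1, a fibulin, was at 106 to 143 CPM in K2 to P2, at 337 and 455 in I2 and J2 and at 216 to 571 in controls (-1.10 ± 0.25, adjusted p = 0.00924), and Ltbp1, which binds latent TGF-beta, had -0.99 ± 0.27. Of 9 small leucine-rich proteoglycans Prelp alone was called, and the median was -0.57.

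Besides P4ha3, the matrix genes that were higher were matricellular genes and a protease. Thbs2, thrombospondin 2, an inhibitor of angiogenesis, had 4934, 7783 and 8892 CPM against 813, 970 and 6337 (1.58 ± 0.41, adjusted p = 0.0258). It lay at 813 to 996 CPM in the 5 controls with Y-linked reads and at 4095 to 6337 in the others, so that its difference was 3.06 and 0.53 against the subsets. Ccn3 was the other of 2 called among 19, and the list median was -0.20 (-0.33 and 0.15 against the subsets). Mmp2, the gelatinase that degrades basement membrane collagen, had 1733, 2052 and 2348 CPM against 991, 1103 and 1802 (0.77 ± 0.18, adjusted p = 0.0106), with 0.77 against either subset. Of 25 proteases and inhibitors, Adamts1, which cleaves versican, and Serpinf1, an antiangiogenic serpin, were lower (-1.25 and -0.46), and the median was -0.04 (-0.16 and 0.40 against the subsets).

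In the insulin-like growth factor (IGF) axis genes were called in both directions, and no receptor of IGF itself was among them. Of 16 genes, Ghr and Irs1, an adaptor of the insulin and IGF receptors, were higher, and Igf1, Igfbp3 and Igfbp4 were lower, with a list median of 0.35. Over all autosomal genes tested 0.853% were higher and 1.20% lower. Igf1, which growth hormone is known to induce, had 42.1, 107 and 140 CPM against 36.4, 282 and 328 (-1.31 ± 0.37, adjusted p = 0.0449). Igfbp3 and Igfbp4, which bind IGF outside the cell, had 21.5 to 69.3 and 39.6 to 152 CPM against 4.01 to 285 and 56.1 to 463 (-1.86 ± 0.42 and -1.54 ± 0.34). All 3 were near 0 against A4, E4 and F4, at 0.08, 0.08 and 0.06. Irs1 had 16, 32.1 and 86.5 CPM against 7.26, 16.6 and 39.4 (1.05 ± 0.30, adjusted p = 0.0427).

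Among 31 interferon-stimulated genes Oasl2 and Irgm1 were higher and Ifi27 was lower, and the list median was 0.81 against -0.0045 over all genes. It was 0.68 against the controls with Y-linked reads and 1.24 against the others, and the summed CPM of the list was 4202 to 5140 in the libraries labelled castration and 1426 to 4045 in those labelled control. Oasl2, an antiviral protein of the oligoadenylate synthetase family, had 143, 167 and 248 CPM against 41.7, 80.3 and 126, without overlap (1.16 ± 0.30, adjusted p = 0.0215). Irgm1, an immunity-related GTPase, had 122, 145 and 178 CPM against 60.5, 80.4 and 98.2, also without overlap (0.87 ± 0.24, adjusted p = 0.0363). Class I antigen presentation genes, which interferon also induces, had 0 of 14 called and a median of 0.16.

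Chemokine genes differed in both directions. Ccl8, which attracts monocytes and other leukocytes, had 236, 325 and 481 CPM against 60.8, 82.3 and 151, without overlap (2.02 ± 0.39, adjusted p = 0.00138), and 2.09 against the controls with Y-linked reads and 1.87 against the others. Cxcl12, a stromal chemokine that retains hematopoietic cells, had 272, 349 and 398 CPM against 279, 1130 and 1360 (-1.42 ± 0.33, adjusted p = 0.0116), and Cxcl5 was also lower, among 23 genes with a median of -0.31. In E4 and F4 Cxcl12 was at 371 and 279 CPM, inside the range of the libraries labelled castration. Of 8 acute phase and interleukin-1 genes Lcn2 and Il1r2, a decoy receptor, were lower (median -1.16). Il1r2 had 0, 6.87 and 16.2 CPM against 10.9, 21.7 and 45.9 (-1.72 ± 0.44, adjusted p = 0.0208).

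Complement genes were lower where called. Of 20 autosomal genes C1qb, C3ar1, C5ar1 and Cfb were lower and none was higher, with a median of -1.05, and 0.27 against A4, E4 and F4. Over all autosomal genes tested 1.20% were lower and 0.853% higher. Cfb, a component of the alternative pathway, had 30.5, 67.9 and 103 CPM against 16, 206 and 394 (-1.59 ± 0.36, adjusted p = 0.0071). The other 3 (a C1q chain and the receptors of the C3a and C5a fragments) are known from macrophages.

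Markers of other cell types moved with these results. Of 12 macrophage and leukocyte genes tested C1qb, Fcer1g and Tyrobp were lower, beside 1.20% of all autosomal genes tested. The list median was -1.35 (-1.75 against the controls with Y-linked reads and 0.03 against the others). The summed CPM of the list was 189 to 321 in the libraries labelled castration and 146 to 991 in those labelled control, of which 146 to 617 in A4, E4 and F4. Fcer1g, a signaling chain of myeloid cells, had 12.8, 22.2 and 33.0 CPM against 10.02, 93.4 and 140 (-1.87 ± 0.43, adjusted p = 0.00889). Cd68 lay at 53.1 to 92.9 and 32.1 to 272 CPM and did not pass (-1.29, adjusted p = 0.081). The gate removes CD45+ cells, and the part of macrophage RNA in the lower calls was not tested. In bulk RNA fewer cells of a type and less RNA per cell cannot be told apart.

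Of 9 epithelial genes tested, as of the mammary gland that lies within this depot in females, Krt14 and Cldn4 were lower and the others were not called. Over all autosomal genes tested 1.20% were lower. The list median was -1.69 (-0.92 and -2.31 against the subsets), and the summed CPM of the list was 54.9 to 156 against 90.4 to 1045, the highest in E4. Krt14, the keratin of basal epithelium, had 0, 0 and 10.8 CPM against 0, 24.9 and 84.6 (-4.26 ± 1.13, adjusted p = 0.0294), and Cldn4, a tight junction claudin, 0, 1.43 and 17.9 against 0, 36.5 and 118 (-3.79 ± 1.03, adjusted p = 0.0349). Sfn, an epithelial 14-3-3 protein, had 0, 2.74 and 3.99 CPM against 6.56, 19.2 and 47.1, without overlap (-3.30 ± 0.86, adjusted p = 0.0263). Leaving out 1 library ended the call of Krt14 in 8 of 16 fits (E4, J2 or any of K2 to P2), of Cldn4 in 11 (B4, D4, E4, G4, J2 or any of K2 to P2) and of Sfn in 3 (E4, G4 or K2), with adjusted p up to 0.0723, 0.0823 and 0.069. Epcam, a defining epithelial marker, lay at 0 to 1.79 and 0 to 11.8 CPM. The part of epithelial RNA in other differences was not tested.

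Among vessel, nerve, blood and fat cell markers 2 genes were called. Myh11, the smooth muscle myosin, was the 1 of 10 mural genes called, at 0, 2.79 and 5.11 CPM against 8.33, 13.9 and 32.7, without overlap (-2.47 ± 0.54, adjusted p = 0.00655), while the list median was -0.44. Acta2, also a mural gene, had a log2 fold change of 0.06 (adjusted p = 0.979). None of 8 endothelial genes was called (median -0.60), and the lymphatic marker Lyve1 had no read in the libraries labelled castration and 15 in those labelled control, at least 4.49-fold lower (adjusted p = 0.0385), the 1 called of 3 lymphatic genes, whose median was -1.33 with Lyve1 and others without reads set at their bounds. No gene was called among 2 adipocyte, 4 erythroid, 6 mesothelial and 4 muscle or Schwann cell genes, with medians of -1.32, -0.89, 0.79 and -0.39 (0.52 with genes without reads in a label at their bound). The mesothelial median was 0.24 against the controls with Y-linked reads and 3.90 against A4, E4 and F4. Adrb3 and Pck1, markers of mature fat cells, had no read in either label.

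The subset markers of the cells themselves were partly lower. Of 10 fibroblast genes Col3a1 and Cd34 were lower, with a median of -0.15. Cd34, on which the cells were sorted, was at 24.0 to 74.3 CPM in K2 to P2, at 160 and 185 in I2 and J2 and at 78.7 to 249 in controls (-1.16 ± 0.33, adjusted p = 0.0446). F3 (tissue factor) and Vit (vitrin), of 5 markers of the ASC1b subset, had -1.75 ± 0.41 and -1.74 ± 0.37 (adjusted p = 0.011 and 0.00406), and the summed CPM of that list was 140 to 241 against 186 to 723. Against A4, E4 and F4 no ASC1b marker passed. F3 lay at 103 to 328 CPM in those controls and at 73.6 to 181 in the libraries labelled castration. No marker was called of 7 for ASC1a (median 0.18) or of 8 for ASC2 (median -0.42).

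Hox genes carry the positional identity of a fat depot. Of 7 genes numbered 9 to 13, Hoxd11 and Hoxd10 were higher, beside 0.853% of all autosomal genes tested, with a list median of 1.54. Hoxd11 had 39 reads in the libraries labelled castration and none in those labelled control, at least 11-fold higher (adjusted p = 0.0176), and all of the 39 lay in K2 to P2. Hoxd10 had 44 reads against 2, a ratio of 20.5 with a 95% exact interval of 5.35 to 175. Hoxc10 had 23.7, 32.3 and 59.2 CPM in the libraries labelled castration, 1.67, 4.45 and 9.65 in the 5 controls with Y-linked reads and 26.2, 51.4 and 60.1 in the others, and did not pass over all 8 (0.95 ± 0.45, adjusted p = 0.333). Of 10 genes numbered 1 to 8 none was called, with a median of -0.59.

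Leaving out I2, J2 and A4 together ended 11 of the 79 calls of autosomal genes named in the text or lists, those of Prelp, Tmem100, C5ar1, Lyve1, Dok2, Adamts1, C1qb, Oasl2, Tyrobp, C3ar1 and Igf1, with adjusted p of 0.0579 to 0.14.

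**Figure D4:**
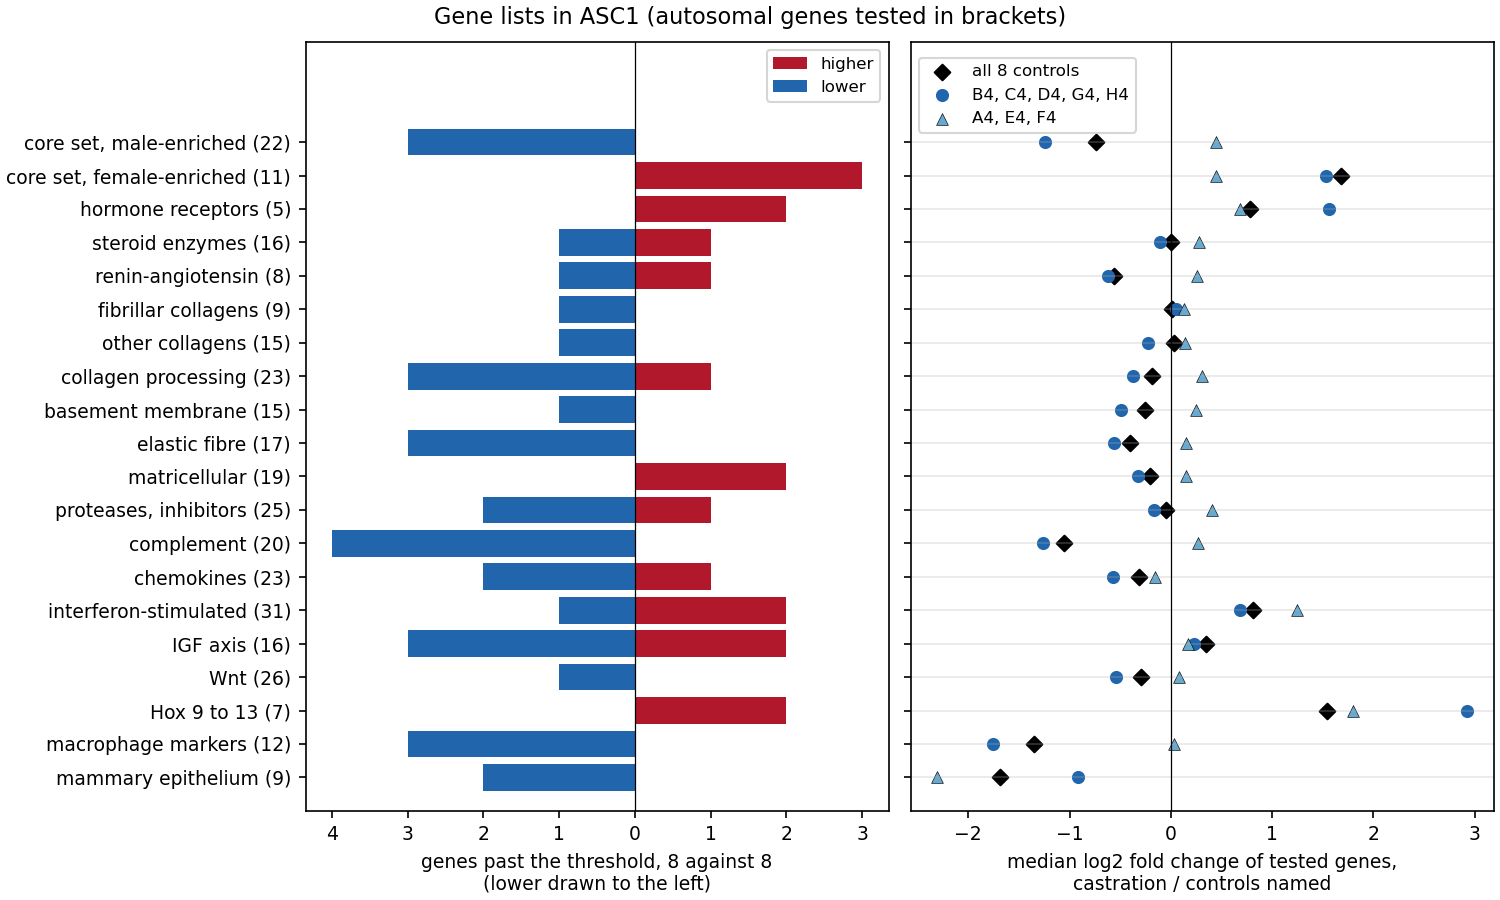
Left, the number of autosomal genes past the threshold in 20 gene lists, higher to the right and lower to the left of 0. Right, the median log2 fold change of the tested genes of each list against all 8 controls (diamonds), the 5 with at least 3 Y-linked reads (circles) and the 3 with fewer (triangles), where 12 of the 20 lists change sign between circles and triangles among them the complement, collagen processing, elastic fibre, male-enriched and macrophage lists.

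Over the 52 lists with autosomal genes tested, the median changed sign between the subsets of controls in 26, of which 15 held a call. Single genes were called in several further lists. They were Cd36, a fatty acid transporter, lower among 20 adipogenesis genes (-1.83, median -0.18), and Errfi1 higher (1.04) beside Lcn2 lower among 18 glucocorticoid response genes (median -0.00). Fos was lower (-1.32) among 22 immediate early genes (median -0.50), and Phgdh, of serine synthesis, lower (-0.63) among 22 genes of the integrated stress and unfolded protein responses (median -0.13). Sfrp1 was the 1 called among 26 Wnt genes (median -0.30) and Ngfr among 14 growth factor receptors (median 0.04).

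Of 52 lists with autosomal genes tested, 21 held no call in edgeR, and among their 299 genes 44 had an unadjusted p below 0.05 while DESeq2 and limma voom each called 1. Beyond those given above, they were lipid synthesis and lipolysis (20 genes, median -0.05), cholesterol synthesis (22, -0.02), TGF-beta and BMP signaling (29, 0.07), angiogenic ligands (23, -0.28), proliferation (25, 0.06), cell cycle inhibitors and p53 targets (17, -0.02), imprinted growth genes (17, 0.10), depot transcription factors (15, 0.11), glycolysis and hypoxia (22, 0.04), oxidative phosphorylation (32, -0.04), heat shock (13, 0.23) and tryptophan breakdown (5, 0.02).

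The same labels were compared in ASC2, which were sorted from the same kinds of mice. There the sex-chromosome transcripts followed the labels in the 8 libraries named for castration. Of the 8 ASC2 libraries named for female control, 6 held at least 3 Y-linked reads, against their label. Of the 102 genes higher in ASC1 none was called higher in ASC2 by edgeR (2 were at an unadjusted p below 0.05) and 6 were called lower, beside 37 higher (0.309%) and 130 lower (1.09%) of all genes tested in ASC2, while 81 had the opposite sign there. Of the 144 lower genes 8 were also called lower in ASC2, 10 were called higher and 77 had the opposite sign. The difference itself was tested as the ASC1 log2 fold change minus that in ASC2. It passed upward for 142 autosomal genes (1.19%) and downward for 140 (1.17%), among them 60 of the 102 and 62 of the 144. The genes called in ASC1 were chosen on part of this same difference, so those shares are a description. By the labels both populations were sorted from the same groups of 8 mice, so their libraries may largely share mice, although the sex-chromosome transcripts of the libraries labelled castration differed between the populations. No source ties a library to a mouse, and the test took the libraries as independent.

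Akr1c14 was called in both populations in opposite directions. Its mean in the libraries labelled castration and control was 42.1 and 9.18 CPM in ASC1 and 18.8 and 157 in ASC2, with log2 fold changes of 2.28 and -3.10 (difference 5.38 ± 0.63, adjusted p = 7.79e-08). Pgr had 40.7 and 3.12 CPM in ASC1 and 6.93 and 17.2 in ASC2 (difference 5.53 ± 1.04, adjusted p = 0.000585). Ngfr was called in both, as 3.84 in ASC1 and -3.89 in ASC2 (difference 7.73 ± 1.29, adjusted p = 0.000122). These genes were high under the castration label in ASC1 and under the control label in ASC2.

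Among genes lower in ASC1, Nt5e had 1.52 and 15.4 CPM there and 9.85 and 1.08 in ASC2 (difference -6.06 ± 0.83, adjusted p = 4.78e-06), and was called in both populations in opposite directions. Lat2 did likewise, with 3.33 and 30.7 CPM in ASC1 and 28.4 and 4.97 in ASC2 (-5.66 ± 0.90, adjusted p = 7.55e-05). Trf (-5.30 ± 0.89) and Dok2, an adaptor of myeloid cells (-5.17 ± 1.11), were next in size, with Galnt6 at -4.97. At the other end stood Cyp11b1, Rxfp2, Erv3 and Siah3, of which some groups held no read, so that the fitted size depends on the prior count, and Ugt1a9, whose 68 ASC1 reads lay in 1 library.

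Itga2b, Col3a1, Fos, Eln and Il1r2 were lower under the castration label in both populations. Itga2b had 3.66 and 23.8 CPM in ASC1 and 1.5 and 16.1 in ASC2 (-2.73 and -3.20, adjusted p = 0.00074 and 0.000266), and the difference between populations was 0.47 ± 0.71 (adjusted p = 0.885). Col3a1 had -1.19 and -1.08 (difference -0.11 ± 0.34), Fos -1.32 and -1.48 (0.16 ± 0.48), and Il1r2 -1.72 and -1.5 (-0.21 ± 0.48). Eln had -1.32 in ASC1 and -2.41 in ASC2, a difference of 1.09 ± 0.48 that did not pass (adjusted p = 0.315).

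**Figure D5:**
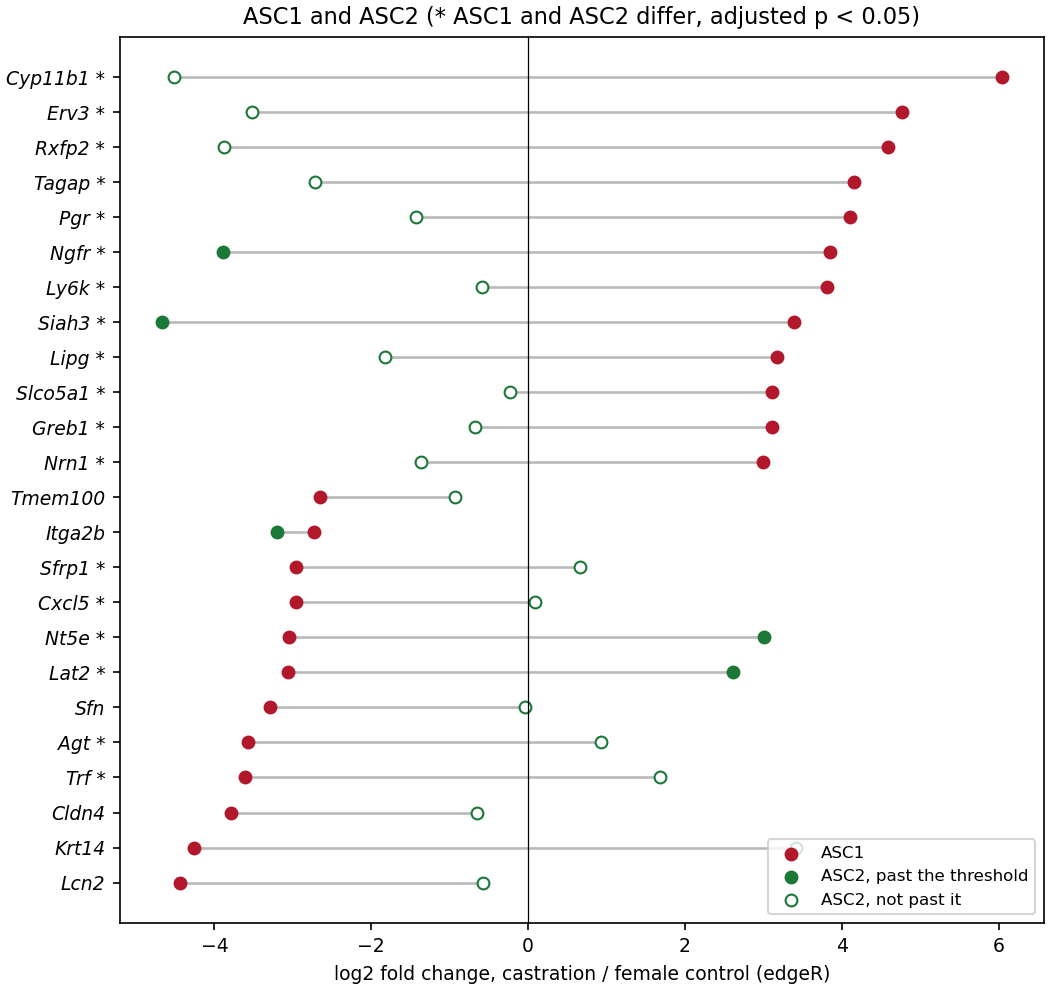
Log2 fold change of castration over female control (x axis, edgeR) in ASC1 (red) and ASC2 (green, filled where past the threshold) for the 12 genes with the largest differences in each direction in ASC1 (y axis). A star marks the 18 genes whose difference between ASC1 and ASC2 passed, and Itga2b is the 1 of the 24 called the same way in both.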

How the data were processed

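RNA of sorted ASC1 and ASC2 from iWAT was measured by Smart-seq3 in 58 libraries, of which the 16 compared are labelled castration ASC1 (n = 8) and female control ASC1 (n = 8). The authors quantified reads with Salmon 1.9.0 on Gencode transcripts of GRCm39, used STAR 2.7.10a, FastQC 0.11.9 and MultiQC 1.12 per the labels, added reads with and without UMIs together, and removed libraries with few detected genes. The deposited values are estimated counts per gene, not normalized; 15.0% of those above 0 were not whole, and all were rounded. UMIs could not be used separately, so amplified copies may be counted more than once.

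Counts were tested in R 4.3.3 with edgeR 4.0.16 (TMM, glmQLFit and glmQLFTest, 1 coefficient for each of 8 groups, all 58 libraries) on the 12464 genes that had 5 reads or more in over 3 libraries, 11960 of them autosomal, with a threshold of 0.05 on Benjamini-Hochberg adjusted p. The biological coefficient of variation was 35.6%. Standard errors are the log2 fold change over the root of F. Where a group held no read, the fold is a bound set at 3 counts for the whole group, and intervals and floors cover counting error only. Symbols were matched by identifier to Gencode vM21 on GRCm38 for 12371 genes, and the rest have none. Promoters are from a RefSeq table on GRCm38.p6. Named are the 12 autosomal genes with the largest differences in each direction (mean of at least 10 CPM in the higher group, no clone or pseudogene names), the 5 in each direction compared with ASC2, members of 55 gene lists (899 genes, 759 tested) past the threshold or used as defining markers, and the genes of the study's castration text; others are said to be chosen after their values were seen. The members and lists were chosen with earlier results of these data known.

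The alternatives were no filter, filterByExpr, RLE size factors, total counts alone, robust estimation, DESeq2 1.42.0, limma 3.58.1 voom, the 16 libraries alone, at least 300000 reads, controls split at 3 Y-linked reads, and each library left out; leaving out I2, J2 and A4 was added after the data were seen. In a simulation that changed 200 of 12464 genes by 4-fold, 77.5% were recovered with 6 false calls for castration against control ASC1, and 61.5% with 9 for the comparison with ASC2. All libraries of a group were drawn there around a common mean. The splits seen among the controls and between I2 and J2 and the other castration libraries were left out, so these rates may not hold for the data. No source says which libraries share a mouse, so p-values measure the spread between libraries. Between libraries of the same label the chi-square per gene was at least 1.68, so no library was a copy of another. A few genes are not reported here.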

Additional observations from a re-analysis of the deposited data

Results flagged for a closer look

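The difference between the labels was not the same in ASC1 and ASC2 for 18 of the 24 genes with the largest differences in ASC1, by a test of the difference itself in edgeR (adjusted p below 0.05). These 24 genes were chosen on the ASC1 part of that difference, which favours a pass, and over all autosomal genes 1.19% passed upward and 1.17% downward. As the ASC1 log2 fold change minus that in ASC2, it was 10.55 for Cyp11b1, 8.46 for Rxfp2, 8.28 for Erv3, 8.06 for Siah3, 7.73 for Ngfr, 6.87 for Tagap, 5.53 for Pgr, 4.99 for Lipg, 4.41 for Ly6k, 4.36 for Nrn1, 3.78 for Greb1 and 3.34 for Slco5a1. It was -6.06 for Nt5e, -5.66 for Lat2, -5.30 for Trf, -4.49 for Agt, -3.61 for Sfrp1 and -3.05 for Cxcl5. All 12 of the former had a log2 fold change below 0 in ASC2. For Cyp11b1, Rxfp2, Erv3 and Siah3 some groups held no read, so their fitted sizes depend on the prior count. The sex-chromosome transcripts of the libraries labelled castration were opposite in the populations (0 to 4 Y-linked reads in ASC1 and 21 to 75 in ASC2). Of the 8 libraries labelled female control, 5 in ASC1 and 6 in ASC2 held at least 3 Y-linked reads.

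A single library stood away from the other 7 of its label in 6 of 64 groups tested, where chance flags about 1 in 20. The measure was taken on log2(CPM + 1) and not on CPM. It is the gap to the nearest library over the whole range of the label, set against the critical value of Dixon for 8 samples. It was 1 for Erv3 in control D4, the 1 control with a read, 0.76 for Siah3 and 0.545 for Rxfp2 in control A4, the shallowest library. It was 0.661 for Krt14 in castration I2 (high), 0.575 for Greb1 in castration I2 (low) and 0.604 for Arl4a in castration O2 (low).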

How the results depend on the processing

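The counts of 102 higher and 144 lower genes moved most with the choice of libraries. They were 57 and 49 with at least 300000 reads, 188 and 226 with only the 16 libraries in the fit, 169 and 283 against the controls with at least 3 Y-linked reads, and 3 and 5 against those with fewer. Without I2, J2 and A4, a choice made after the data were seen, 168 were higher. Leaving out 1 library gave 58 to 124 higher and 61 to 171 lower, the lowest for both without G4. With limma voom 68 were lower. The other tools, normalizations and filters were within 1.5 times of both counts. For the comparison with ASC2, 216 genes were higher without I2, J2 and A4, and 72 lower with limma voom, against 142 and 140. Signs turned against the controls with fewer than 3 Y-linked reads for Angpt1 (1.55), Ace (1.00), Prelp (0.78), Arhgap24 (0.48), Cfb (0.35), Adamts1 (0.26), Igf1 (0.084), Igfbp3 (0.079), Igfbp4 (0.059), Tyrobp (0.038) and C1qb (0.021). Leaving out 1 library gave -0.16 to 0.072 for Fkbp5 and -0.83 to 0.42 for Angpt1, and Fkbp5 was 0.0095 against the controls with at least 3. The causes were not tested. No paired analysis was possible because the labels name the libraries of both groups by wells that share no replicate number. At these depths, fold changes of genes under about 10 CPM rest on few reads.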
